A study of Lemna gibba and Lemna japonica and Spirodela polyrhiza with 12 samples.

Results

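Short two-strand 24 nt loci are described here from lists of small RNA loci of 4 duckweeds, which are floating aquatic plants of the family Lemnaceae. A locus was taken when its dominant read size was called 24 nt, it was not a microRNA hairpin, no strand was assigned to it, it was at most 600 bp long and it lay on a numbered nuclear chromosome. In all, 28132 of 79572 listed loci met this. The loci were thus chosen by their size call, strand and length, and by reads where a read minimum is named, so values of these measures are descriptions. Position along the chromosome, spacing and neighbours were not used in the choice.

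Plants make 24 nt small interfering RNAs from double-stranded RNA, which is copied from transcripts of repeats and transposons and then cut by a Dicer-like enzyme. These RNAs are loaded into Argonaute proteins and guide DNA methylation to the sequence they came from, the pathway called RNA-directed DNA methylation. Because the precursor is double-stranded, the reads of such a source fall on both strands, whereas a microRNA comes from 1 arm of a folded transcript and its reads lie on a single strand. Methylation was not measured here, so the loci are described only as sources of small RNA reads.

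The duckweeds were Wolffia australiana (accession Wa8730), Spirodela polyrhiza (accession Sp9509), Lemna japonica (accession Lj8627) and Lemna gibba (accession Lg7742a). Background knowledge gives Lemna japonica as a hybrid of Lemna minor and Lemna turionifera. The assembly of Lj8627 has 21 chromosome numbers, each with a copy whose name ends in M and a copy whose name ends in T, and the labels do not define these letters. All plants were grown from sterile stock-centre cultures at 23 °C with 16 h of light per day in Schenk and Hildebrandt medium (pH 5.6, 1% sucrose), and no treatment or genotype contrast was applied. Whole fronds were sampled, which mix all cell types of the plant, in 3 biological replicates per accession and 12 libraries in all, made with a NEXTflex small RNA kit and read on a NextSeq 500. In whole-frond RNA, fewer cells that make a small RNA and less of it per cell cannot be told apart. Each list pools the 3 replicates of its accession, so no difference between accessions was tested and no spread between replicates could be measured. Intervals in brackets are 95% intervals for counting error only. Reads carry no molecular identifiers, and loci of 1 list are not replicates.

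The lists held between 5005362 reads in loci (Lg7742a) and 7197515 (Sp9509), with 5394332 in Lj8627 and 5649845 in Wa8730. The smallest count listed for a short two-strand 24 nt locus was 3 reads in Lg7742a and Lj8627, 4 in Wa8730 and 5 in Sp9509. Counts over whole lists therefore start from different minimums, and values at 5 and at 10 reads are set beside them for number, density, size share, runs, windows and position. Neighbours are given over whole lists only.

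Wa8730 had by far the most of these loci. Its list held 20306, against 5855 in Lj8627, 1398 in Lg7742a and 573 in Sp9509. They made up 54.6% of all listed loci in Wa8730 (54.1 to 55.1), 22.5% in Lj8627 (21.95 to 23.0), 9.07% in Sp9509 (8.39 to 9.81) and 13.9% in Lg7742a (13.3 to 14.6). In reads they were a small fraction everywhere. Of all reads in loci they held 4.96% in Wa8730 and 0.649% in Lj8627, and 0.155% in Lg7742a and 0.165% in Sp9509.

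The order of the accessions changed with the read minimum. At 5 reads the counts were 20212 in Wa8730, 4021 in Lj8627, 818 in Lg7742a and 573 in Sp9509. At 10 reads Wa8730 held 15811, Sp9509 558, Lj8627 480 and Lg7742a 94. Sp9509 thus had the fewest of these loci at the lower limits and more than either Lemna accession at 10 reads. The share still listed at 10 reads was 97.4% in Sp9509 (95.7 to 98.4) and 77.9% in Wa8730 (77.3 to 78.4). It was 8.20% in Lj8627 (7.52 to 8.93) and 6.72% in Lg7742a (5.53 to 8.16). Whole lists also lost a larger part in both Lemna accessions. Of all listed loci, 5173 of 6315 in Sp9509 and 28942 of 37162 in Wa8730 had 10 or more reads. In Lj8627 it was 7066 of 26073 and in Lg7742a 3415 of 10022. Wa8730 had 14.5 times as many short two-strand 24 nt loci as Lg7742a over the whole lists (13.8 to 15.3) and 168 times as many at 10 reads (137 to 206). Over Lj8627 the corresponding ratios were 3.47 (3.37 to 3.57) and 32.9 (30.1 to 36.1), and over Sp9509 they were 35.4 (32.6 to 38.5) and 28.3 (26.0 to 30.8).

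**Figure D1:**
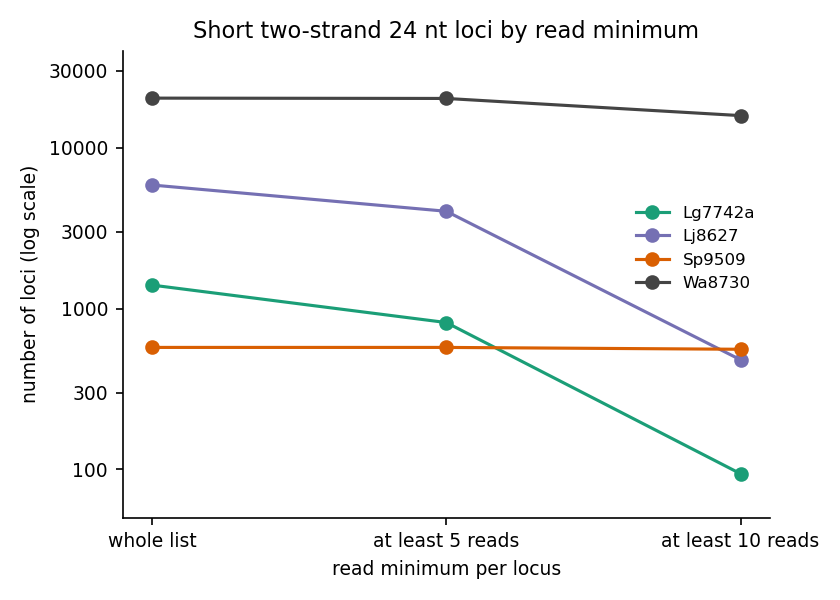
Number of short two-strand 24 nt loci (log scale) in the list of each accession over the whole list, at 5 or more and at 10 or more reads per locus; each point is 1 pooled list. The lines of Wa8730 and Sp9509 are nearly flat, and those of Lg7742a and Lj8627 drop to 94 and 480 loci at 10 reads.

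Each locus held few reads. In Sp9509 the median was 20 reads (19 to 20), with quartiles of 15 and 25 and a highest value of 59. In Wa8730 it was 13 reads, with quartiles of 10 and 17 and a highest value of 46. In both Lemna accessions the median was 5 reads and the quartiles 4 and 7, with a highest value of 27 in Lg7742a and 24 in Lj8627. The ranges between quartiles in Sp9509 and Wa8730 did not overlap with those of either Lemna accession. At 10 or more reads the medians were 20 in Sp9509, 14 in Wa8730 and 11 in Lg7742a and Lj8627. This split between lists was not particular to 24 nt calls. Of short two-strand loci called 21 nt over the whole lists, Lg7742a and Lj8627 had a median of 6 reads, Wa8730 15 and Sp9509 18. For 22 nt calls Lg7742a had 6, Lj8627 7, Wa8730 10 and Sp9509 16.

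Lengths were almost the same in the 4 lists. The median length was 412 bp in Lg7742a, 413 bp in Lj8627 and 414 bp in Sp9509 and Wa8730. All but 3 of the loci were at least 401 bp long, and most lay between 401 and 424 bp: 94.8% in Lg7742a (93.5 to 95.8), 94.5% in Lj8627 (93.9 to 95.1), 81.8% in Wa8730 (81.3 to 82.3) and 78.7% in Sp9509 (75.2 to 81.9). This narrow peak was not particular to 24 nt calls: 94.3% of 23 nt loci and 62.0% of 21 nt loci of any strand in Lg7742a also had 401 to 424 bp. The 3 exceptions, all in Wa8730, lay at the ends of the listed sequence and were picked out after their values were seen. One started at base 1 of chromosome 2 (chr2:1-359, 26 reads), and the others ended at the last listed base of chromosome 8 (chr8:18271768-18272036, 10 reads) and chromosome 11 (chr11:17348090-17348403, 18 reads). The sources used here do not say how the locus caller set the minimum length or how far the listed ends reach past the reads. Since a 24 nt read covers only a small fraction of a 401 bp locus, lengths and edge-to-edge distances are those of the listed intervals and need not be those of the sources of the RNA.

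Longer members held more reads. Across loci, the Spearman correlation of reads with length was 0.56 in Sp9509 (573 loci) and 0.51 in Wa8730 (20306 loci), against 0.26 in Lg7742a (1398 loci) and 0.27 in Lj8627 (5855 loci). Loci of 1 list share their libraries, so these are descriptions. In Wa8730 the median was 12 reads at 401 to 424 bp, 18 at 425 to 449 bp and 23 at 550 to 600 bp. At the length limit nothing broke off. Loci of 551 to 600 bp, just inside, had medians of 23 reads in Wa8730 (835 loci), 33.5 in Sp9509 (36), 12 in Lj8627 (62) and 11 in Lg7742a (15). Two-strand 24 nt loci of 601 to 650 bp, just outside, had medians of 25 reads in Wa8730 (810 loci), 35 in Sp9509 (31), 11 in Lj8627 (71) and 15 in Lg7742a (11).

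The accessions also differed in how far two-strand 24 nt loci extended beyond this size. Of all two-strand 24 nt loci on numbered chromosomes, 94.8% were short in Lg7742a (93.6 to 95.9) and 94.0% in Lj8627 (93.4 to 94.5), against 73.1% in Wa8730 (72.6 to 73.6) and 63.1% in Sp9509 (59.9 to 66.2). That contrast held at 5 reads, with 91.5% in both Lemna accessions, 73.0% in Wa8730 and 63.1% in Sp9509, but not at 10 reads. At 10 or more reads the shares were 58.0% in Lg7742a (50.3 to 65.4), 59.9% in Lj8627 (56.5 to 63.3), 67.9% in Wa8730 (67.3 to 68.5) and 62.5% in Sp9509 (59.3 to 65.6). At that minimum Wa8730 had the highest share, with an interval above those of the others. The intervals of Lg7742a, Lj8627 and Sp9509 overlapped one another.

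To set the accessions side by side at like reads, all short two-strand loci of any size call were split by reads, and the share called 24 nt was taken. Wa8730 stood apart at every level up to 49 reads. With 10 to 14 reads, 89.0% of its short two-strand loci were 24 nt (88.3 to 89.6), against 34.7% in Lj8627 (32.2 to 37.4), 24.4% in Sp9509 (20.7 to 28.5) and 23.0% in Lg7742a (18.9 to 27.5). With 15 to 19 reads the share was 93.0% in Wa8730 (92.3 to 93.7), 35.5% in Sp9509 (31.2 to 40.0), 13.6% in Lj8627 (10.05 to 18.1) and 8.33% in Lg7742a (3.88 to 17.0).

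Between 5 and 29 reads the share ran in different directions with reads. In Sp9509 it was 6.10% at 5 to 9 reads (3.73 to 9.82) and 41.6% at 20 to 29 reads (37.4 to 45.9). In Lg7742a it was 41.5% at 5 to 9 reads (39.2 to 43.8) and 6.15% at 20 to 29 reads (2.42 to 14.8). Lj8627 ran as Lg7742a did, with 51.3% at 5 to 9 reads (50.2 to 52.5) and 3.42% at 20 to 29 reads (1.47 to 7.77). At 50 or more reads the share was 2 of 60 loci in Sp9509, or 3.33% (0.919 to 11.4), and 0 of 155 in Wa8730 (0 to 2.42%).

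How far the lists differed in strand depended on reads. Of short 24 nt loci of any strand with 10 to 14 reads, 91.7% had no strand assigned in Wa8730 (91.1 to 92.3) and 80.4% in Sp9509 (73.0 to 86.2), with 88.8% in Lj8627 (85.7 to 91.3) and 84.8% in Lg7742a (76.5 to 90.6). With 5 to 9 reads the share was 80.9% in Wa8730 (79.9 to 82.0), 73.5% in Lj8627 (72.2 to 74.7) and 70.0% in Lg7742a (67.2 to 72.7), but 25.4% in Sp9509 (16.1 to 37.8). With 20 to 29 reads it was 98.2% in Wa8730 (97.7 to 98.7) and 93.5% in Sp9509 (89.5 to 96.0), against 33.3% in Lg7742a (13.8 to 60.9), where only 12 such loci were listed.

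**Figure D2:**
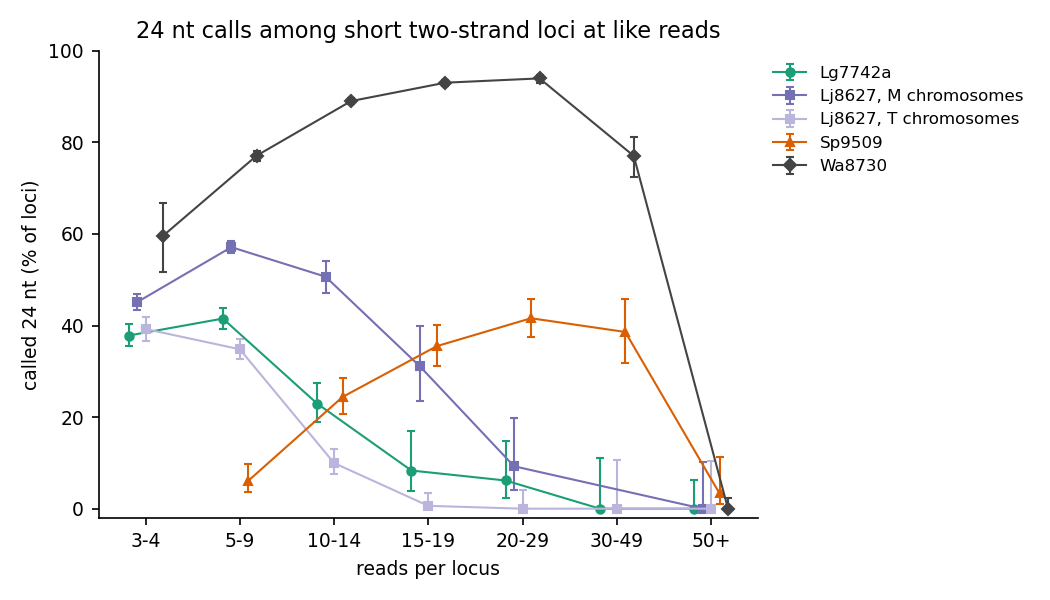
Percent of short two-strand loci (at most 600 bp, any size call) called 24 nt, by reads per locus; bars are 95% Wilson intervals, points are offset sideways for legibility, and bins with fewer than 20 loci are not drawn. Wa8730 lies above all others up to 49 reads, Sp9509 climbs to 41.6% at 20 to 29 reads and has 3.33% at 50 or more, and Lg7742a and both chromosome sets of Lj8627 fall toward 0.

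The 2 members with most reads were looked up in each accession, and for all but 1 of them the nearest locus of any kind was another 24 nt locus. In Sp9509 they were neighbours, 252 bp apart on chromosome 19 (chr19:1483557-1484038, 59 reads, and chr19:1482763-1483304, 52 reads), and the locus nearest to the second was a 22 nt locus 119 bp away. In Wa8730 chr16:4520507-4521061 had 46 reads and lay 178 bp from a 24 nt locus of 1246 bp, and chr5:780256-780836 had 45 reads and lay 429 bp from one of 660 bp. Both were thus flanked by a 24 nt locus past the length limit. In Lg7742a chr7:23398840-23399402 had 27 reads and lay 260 bp from a 24 nt locus of 952 bp, and chr5:24997226-24997737 had 23 reads and lay 45 bp from one of 750 bp. In Lj8627 chr4M:212767-213345 had 24 reads and lay 179 bp from another member with 11 reads. There, chr1M:2880959-2881557 had 22 reads and ended 3 bp before a 24 nt locus of 2086 bp with 78 reads. Coordinates are 1-based on the assemblies named in the lists, asm202106v1 for Lg7742a, Lj8627 and Wa8730 and asm3v1 for Sp9509. Genes and repeats at these places were not looked up, since no annotation was used here.

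Density was taken as loci per Mb from base 1 of a chromosome to its last listed locus. Wa8730 had 57.8 short two-strand 24 nt loci per Mb over 351 Mb, Lj8627 7.79 over 752 Mb, Sp9509 4.14 over 138 Mb and Lg7742a 2.88 over 485 Mb. Per Mb, Wa8730 had 20.05 times the loci of Lg7742a, 13.9 times those of Sp9509 and 7.42 times those of Lj8627. Sp9509, with the fewest loci, thus had more per Mb than Lg7742a. At 10 or more reads the densities were 45.0 per Mb in Wa8730 and 4.04 in Sp9509, against 0.639 in Lj8627 and 0.194 in Lg7742a.

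Over the whole lists, chromosomes lay close together within Wa8730, Sp9509, Lg7742a and the M set of Lj8627. There the densest had at most 1.96 times the loci per Mb of the sparsest. On the T set it had 3.17 times, and over all 42 chromosomes of Lj8627 12.4 times. The mean over chromosomes was 58.2 ± 9.79 loci per Mb in Wa8730 (SD, 20 chromosomes), 4.17 ± 0.812 in Sp9509 (20) and 2.95 ± 0.513 in Lg7742a (21). In Lj8627 it was 14.1 ± 2.27 on the M chromosomes (21) and 2.93 ± 0.805 on the T chromosomes (21). Over the whole lists the T chromosomes thus had about the density of Lg7742a, and the M chromosomes did not overlap with them. All other loci did not overlap between the sets either. Their lowest density on M was 28.4 per Mb (8M) and their highest on T chromosomes 22.8 (13T). For members, the densest and sparsest chromosomes were 14 (76.1 per Mb) and 8 (40.8 per Mb) in Wa8730, and 20 (5.51) and 2 (2.81) in Sp9509. They were 20 (4.04) and 4 (2.16) in Lg7742a, and 21M (20.4) and 11T (1.64) in Lj8627. In Wa8730, chromosomes dense in these loci were dense in all other loci too, with a Spearman correlation of 0.94 over 20 chromosomes. It was 0.36 in Lg7742a, 0.49 over the M and −0.05 over the T chromosomes of Lj8627, and 0.01 in Sp9509. The other loci were unlike sets, since 24 nt loci that were long or had a strand made up 9598 of 16606 in Wa8730. They were 467 of 5615 in Sp9509, 849 of 8441 in Lg7742a and 2772 of 19098 in Lj8627. At 10 reads the T chromosomes had 0.121 members per Mb and Lg7742a 0.194. The SD over chromosomes was then 53.0% of the mean in Lg7742a and 75.9% on T chromosomes, against 17.4% and 27.5% over the whole lists. At 10 reads it was 18.4% in Wa8730, 19.1% in Sp9509 and 31.5% on M chromosomes. All chromosomes of a list share their libraries, so these are descriptions.

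**Figure D3:**
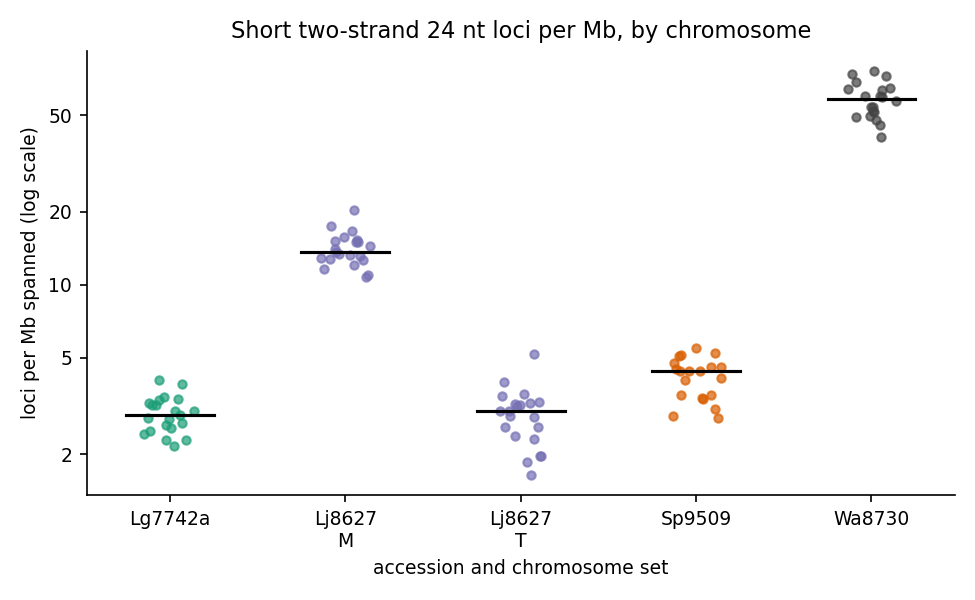
Short two-strand 24 nt loci per Mb spanned (log scale), 1 point per chromosome, with the median as a bar. The 20 chromosomes of Wa8730 lie between 40.8 and 76.1 loci per Mb, above all others, and the M chromosomes of Lj8627 lie above its T chromosomes.

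Within Lj8627 both chromosome sets come from the same libraries and the same list. The M chromosomes held 4656 short two-strand 24 nt loci and the T chromosomes 1199, a ratio of 3.88 (3.64 to 4.14). The M copy held more in 21 of 21 chromosome pairs. Pair 17 had the highest ratio, 10.1, with 141 loci on 17M and 14 on 17T, and pair 10 the lowest, 3.01, with 229 on 10M and 76 on 10T. All other loci were also more numerous on M, 11216 against 7882 on T chromosomes. The M copy held more of them in every pair but 13 (447 on M, 464 on T) and 20 (299 and 363). In pair 17 they numbered 293 on M and 113 on T. The T chromosomes were not the shorter ones: they spanned 415 Mb and the M chromosomes 337 Mb, and the T copy was longer in 20 of 21 pairs. Per Mb the ratio of short two-strand 24 nt loci was 4.78.

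The contrast between the sets widened with reads. The ratio of M to T was 2.47 among loci of 3 to 4 reads (2.24 to 2.74), 4.70 at 5 to 9 reads (4.31 to 5.13) and 7.92 at 10 to 14 reads (5.89 to 10.6). At 10 or more reads 430 lay on M and 50 on T chromosomes, and 4 of the T chromosomes held none. The median was 6 reads on M chromosomes and 5 on T chromosomes, and the highest 24 on M and 16 on T.

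Other short two-strand loci of the same list were divided in another way. Of those not called 24 nt, the M chromosomes held 4343 and the T chromosomes 2741, for a ratio of 1.58 (1.51 to 1.66), and at 10 or more reads the ratio was 0.737 (0.661 to 0.822), with more on T. The 22 nt loci among them had a ratio of 0.877 (0.796 to 0.967) and the 23 nt loci one of 3.31 (2.85 to 3.84), near that of the 24 nt loci. At like reads the share called 24 nt was 50.7% on M (47.1 to 54.2) and 9.96% on T chromosomes (7.62 to 12.9) for short two-strand loci of 10 to 14 reads. At 15 to 19 reads it was 31.1% on M (23.5 to 39.9) and 0.621% on T chromosomes (0.110 to 3.43), a single locus of 161. The sources used here do not say where reads matching both sets were put, and the part of this in the division was not tested.

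Short two-strand 24 nt loci lay closest together in Wa8730 and next closest in Sp9509, the list with the fewest of them. The median distance to the nearest other member, from edge to edge, was 1.31 kb in Wa8730 (1.28 to 1.35), 2.48 kb in Sp9509 (1.92 to 3.61), 21.6 kb in Lj8627 (20.5 to 23.0) and 79.2 kb in Lg7742a (67.4 to 88.9). The length per member, span divided by number, was 17.3 kb in Wa8730, 241 kb in Sp9509, 128 kb in Lj8627 and 347 kb in Lg7742a. That length was 97.4 times the median distance in Sp9509, 13.2 times in Wa8730, 5.94 times in Lj8627 and 4.38 times in Lg7742a. Loci scattered at random also lie nearer to their closest neighbour than this length. Only an order of the accessions is thus read from it, and not that of the Lemna accessions. On the M chromosomes of Lj8627 the length was 4.28 times the median distance and on its T chromosomes 4.00 times, both below Lg7742a. At 10 reads it was 12.5 times in Lg7742a and 10.2 times in Lj8627. Over the whole list of Lj8627 the median distance was 16.9 kb on M chromosomes (15.7 to 18.0) and 86.5 kb on T chromosomes (75.1 to 96.5). The value on T chromosomes was again near Lg7742a. At 10 reads it was 2975 kb on T chromosomes (1219 to 4970) and 411 kb in Lg7742a (59.1 to 1275).

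Distances in Sp9509 were either short or long. Its lower quartile was 0.515 kb and its upper quartile 127 kb, so most members had a companion close by and the rest were far from any. Another member lay within 10 kb of 59.9% of them (55.8 to 63.8) and within 50 kb of 66.0% (62.0 to 69.7), so few lay between these distances. In Wa8730 the share within 10 kb was 85.9% (85.4 to 86.3), in Lj8627 34.8% (33.6 to 36.0) and in Lg7742a 20.5% (18.4 to 22.7). Within 1 kb the shares were 43.6% in Wa8730 and 34.4% in Sp9509, against 9.44% in Lj8627 and 7.65% in Lg7742a.

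Loci of the 21 nt call, taken the same way, were farther from their own kind. Of short two-strand 21 nt loci, 24.1% had another of them within 10 kb in Wa8730 (20.8 to 27.6), 32.8% in Sp9509 (29.1 to 36.8), 18.4% in Lj8627 (17.0 to 19.8) and 11.5% in Lg7742a (9.82 to 13.4). In Sp9509 the comparison is of like numbers, 573 loci of 24 nt and 567 of 21 nt, with median distances of 2.48 kb for 24 nt and 40.9 kb for 21 nt. In Wa8730, Lj8627 and Lg7742a there were more 24 nt than 21 nt loci, and number moves with distance. At 10 or more reads Lg7742a had fewer 24 nt loci, 94 against 321 of 21 nt. There 34.0% of the 24 nt loci (25.3 to 44.1) and 8.72% of the 21 nt loci (6.10 to 12.3) had one of their kind within 10 kb.

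**Figure D4:**
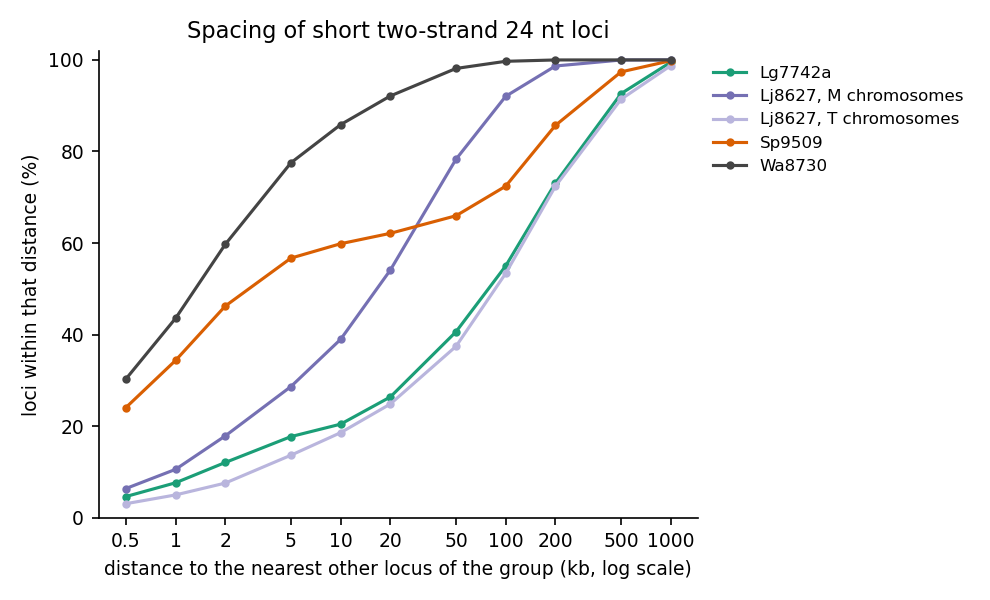
Cumulative percent of short two-strand 24 nt loci with another such locus within a given distance (kb, log scale), from edge to edge, over the whole lists. Wa8730 reaches 85.9% at 10 kb; Sp9509 reaches 59.9% there and then flattens to 66.0% at 50 kb, while the T chromosomes of Lj8627 follow Lg7742a.

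Members that followed each other at 10 kb or less were joined into runs. Wa8730 had 245 runs of 10 or more members, which held 16.6% of its loci, and Lj8627 had 3, all on M chromosomes. At 5 reads the numbers were 244 in Wa8730 and 1 in Lj8627, and at 10 reads 150 in Wa8730 and none in Lj8627. Sp9509 and Lg7742a had no run that long, and the median run of at least 2 members held 2 in every list but that of Wa8730, where it held 3. The longest run of Wa8730 had 36 members with 584 reads at the start of chromosome 1 (chr1:30889-111223), with 14 long 24 nt loci among them. Over the whole list of Lj8627 it had 12 members with 112 reads (chr10M:16996796-17032340), in Lg7742a 7 members with 76 reads (chr7:23393932-23407171) and in Sp9509 5 members with 91 reads (chr11:6736891-6742618). At 5 reads the longest run of Lj8627 was another, with 10 members and 126 reads (chr4M:211032-241614), and at 10 reads that of Lg7742a was another, with 5 members and 77 reads (chr5:24990338-24999408). The 5 of Sp9509 had 17, 22, 17, 21 and 14 reads, with no other locus between them. The run of Lg7742a held the member with most reads in that list, 27, and its others had 6, 7, 6, 14, 10 and 6 reads.

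Members in company held somewhat more reads. With another member within 10 kb the median was 7 reads in Lg7742a (6 to 7), 6 in Lj8627, 20 in Sp9509 (20 to 21) and 13 in Wa8730. Without one it was 5 in Lg7742a (4 to 5), 5 in Lj8627, 18 in Sp9509 (17 to 19) and 10 in Wa8730 (10 to 11). The difference was at most 3 reads and ran the same way in the 4 lists.

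Long two-strand 24 nt loci, over 600 bp, were common neighbours in Wa8730 and Sp9509. The lists held 7479 of them in Wa8730 and 335 in Sp9509, against 375 in Lj8627 and 76 in Lg7742a. One lay within 1 kb of 27.2% of the short loci in Sp9509 (23.7 to 31.0) and of 24.8% in Wa8730 (24.2 to 25.4), against 2.22% in Lg7742a (1.57 to 3.13) and 1.74% in Lj8627 (1.44 to 2.11). Within 10 kb the shares were 57.2% in Wa8730 and 41.7% in Sp9509, against 5.84% in Lj8627 and 5.79% in Lg7742a. Of short two-strand 21 nt loci in the same lists, lower shares had a long 24 nt locus within 10 kb, 17.0% in Wa8730 (14.2 to 20.2), 18.7% in Sp9509 (15.7 to 22.1), 2.89% in Lj8627 (2.34 to 3.57) and 1.42% in Lg7742a (0.887 to 2.26). Counting short and long together, a two-strand 24 nt locus lay within 10 kb of 88.7% of members in Wa8730 (88.3 to 89.1), 73.5% in Sp9509 (69.7 to 76.9), 36.2% in Lj8627 (35.0 to 37.5) and 21.9% in Lg7742a (19.8 to 24.1). Most members in both Lemna accessions thus had no other two-strand 24 nt locus within this distance.

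The single nearest locus of any kind was another member for 60.1% of members in Wa8730 (59.5 to 60.8), 35.8% in Sp9509 (32.0 to 39.8), 33.2% in Lj8627 (32.0 to 34.4) and 22.9% in Lg7742a (20.8 to 25.2). Members made up 55.0% of the loci on numbered chromosomes in Wa8730 and 9.26% in Sp9509, against 23.5% in Lj8627 and 14.2% in Lg7742a. The nearest locus was thus a member more often than members occur in each list, most so in Sp9509. Loci with no size call were 48.9% of the loci on numbered chromosomes in Sp9509 and the nearest locus of 16.1% of its members (13.3 to 19.3). MicroRNA hairpins are rare in all lists. They were the nearest locus of 0.572% of members in Lg7742a (0.290 to 1.13), where they made up 0.823% of loci on numbered chromosomes, and of 0.444% in Lj8627 (0.303 to 0.650), where they made up 0.549%. In Wa8730 they were nearest to 0.113% of members (0.0755 to 0.170) and made up 0.314% of loci, and in Sp9509 they were nearest to 0.175% (0.0308 to 0.982) and made up 1.31%.

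Along the chromosomes, each was divided by position, scaled from base 1 to the last listed locus, and the outermost 10% at either end combined, which would hold 20% of evenly spread loci. In Lg7742a 30.6% of the short two-strand 24 nt loci lay there (28.3 to 33.1), against 23.3% of all other loci (22.4 to 24.3). In Lj8627 it was 31.3% of members (30.1 to 32.5) and 25.3% of other loci (24.6 to 25.9). Over the whole lists, both Lemna accessions thus held a higher share of these loci than of other loci at the ends. In Wa8730 the shares were 25.5% for members (24.9 to 26.1) and 25.2% for other loci (24.5 to 25.8), which do not differ beyond counting error. In Sp9509 they were 17.1% for members (14.2 to 20.4) and 21.9% for other loci (20.8 to 23.0), with the lower share for members.

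The outermost 20% at either end, which would hold 40% of evenly spread loci, was taken as well. The shares were 50.2% of members (47.6 to 52.8) and 43.3% of other loci in Lg7742a, and 50.3% of members (49.1 to 51.6) and 44.7% of other loci in Lj8627. In Wa8730 they were 45.4% of members (44.8 to 46.1) and 44.6% of other loci, and in Sp9509 37.3% of members (33.5 to 41.4) and 41.1% of other loci (39.8 to 42.4), whose intervals overlap.

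The pattern was also counted chromosome by chromosome. The share of members at the ends was above that of other loci on 19 of 21 chromosomes of Lg7742a, 35 of 42 of Lj8627, 12 of 20 of Wa8730 and 6 of 20 of Sp9509. Both chromosome sets of Lj8627 showed it, with 31.7% of members against 26.3% of other loci on M chromosomes and 30.0% against 23.8% on T chromosomes. Of short two-strand loci not called 24 nt, 29.4% lay at the ends of M chromosomes (28.1 to 30.8) and 25.3% at those of T chromosomes (23.7 to 26.9). Against these the excess of members was 2.25 percentage points on M (0.350 to 4.15) and 4.74 on T chromosomes (1.72 to 7.84), compared with 5.36 on M and 6.25 on T chromosomes against all other loci. In Lg7742a such loci had 24.3% at the ends (22.7 to 26.0), for an excess of members of 6.30 points (3.38 to 9.27). In Lj8627 the far end was the fuller: the last 10% of the chromosomes held 17.8% of members and the first 10% held 13.5%. Which end of a chromosome is numbered first is a convention of the assembly.

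The read minimum touched the position in Lg7742a, at 10 reads but not at 5. At 5 reads the ends held 29.8% of its members and 22.4% of its other loci, and in Lj8627 33.2% and 25.4%. The shares were 25.6% and 25.3% in Wa8730, and 17.1% and 21.9% in Sp9509. At 10 or more reads 18.1% of the members of Lg7742a lay at the ends (11.6 to 27.1), against 20.8% of other loci (19.5 to 22.3). The sign thus turned among its 94 members with most reads, with a difference of −2.76 percentage points (−9.39 to 6.33). In the outermost 20% it did not turn, with 46.8% of these members (37.0 to 56.8) and 41.3% of other loci (39.6 to 43.0). In Lj8627 the excess of members at the ends was seen at that minimum, with 34.0% of members (29.9 to 38.3) and 23.3% of other loci (22.3 to 24.4). On its T chromosomes alone, 18.0% of the 50 members with 10 or more reads lay at the ends (9.77 to 30.8), against 22.3% of other loci (20.9 to 23.7), and the sign turned there too. In Lg7742a 3.97% of members at the ends had 10 or more reads (2.49 to 6.27), against 7.94% of those in the interior (6.40 to 9.81). In Lj8627 the values were 8.89% at the ends (7.67 to 10.3) and 7.88% in the interior (7.09 to 8.76). The direction in Lg7742a was not particular to members, since its other loci also lay less at the ends at 10 reads. Their share there was 24.3% over the whole list and 16.9% at 10 reads for other short two-strand loci. For all other loci it was 23.3% and 20.8%. Distances differed with position too: the median distance to the nearest member was 54.6 kb at the ends and 103 kb in the interior in Lg7742a, and 13.3 kb at the ends and 27.4 kb in the interior in Lj8627. In Sp9509 it was 4.24 kb at the ends and 2.24 kb in the interior. Close company ran the other way in Lg7742a: 14.95% of members at the ends had another within 10 kb, against 22.9% in the interior. In Lj8627 these shares were 44.3% at the ends and 30.5% in the interior, and in Sp9509 54.1% and 61.1%. Members of Lg7742a were also denser at the ends, with 4.41 per Mb against 2.29 to 2.83 farther in. Its medians are thus not read as closer grouping at the ends.

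**Figure D5:**
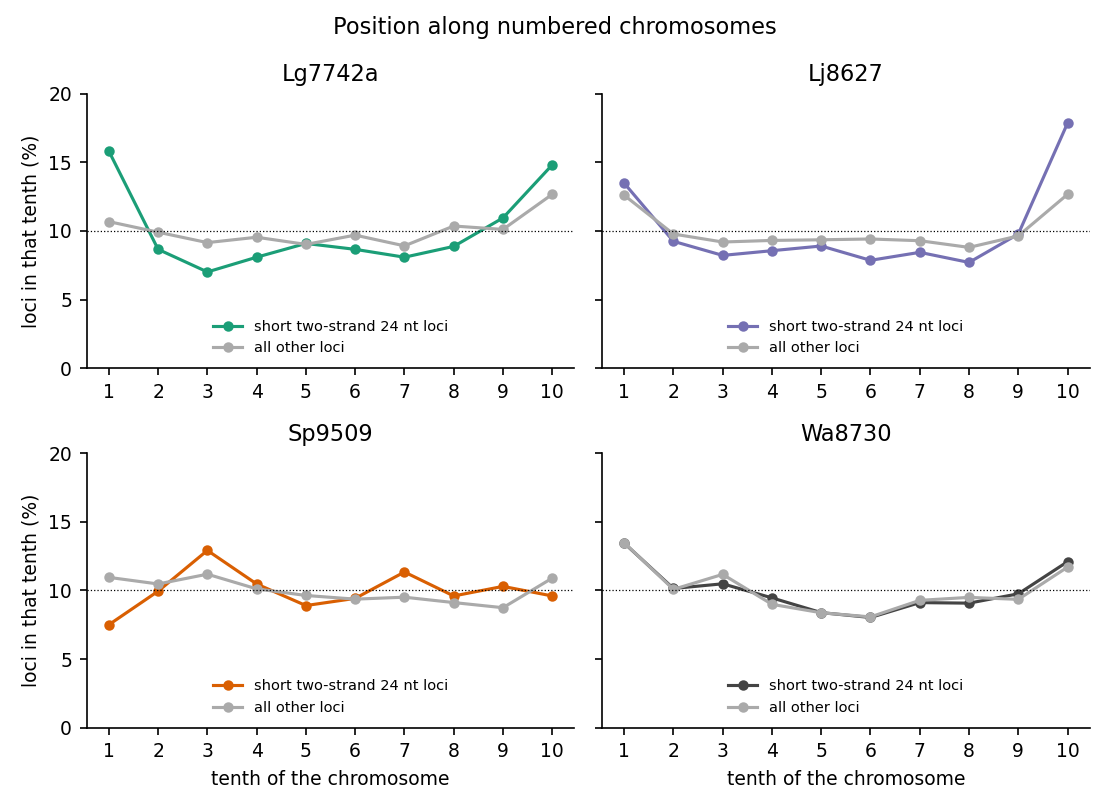
Percent of loci in each consecutive 10% of the chromosome, scaled from base 1 to the last listed locus and summed over the numbered chromosomes, for short two-strand 24 nt loci (coloured) and all other loci (grey); the dotted line marks 10%. Lg7742a and Lj8627 have a higher share of members than of other loci in the last 10%, Wa8730 has like shares of both, and Sp9509 has 7.50% of members in the first 10%.

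In windows of 1 Mb, Wa8730 had a median of 57 short two-strand 24 nt loci (341 full windows) and no window without any. Lj8627 had a median of 5 (731 windows, 43 of them empty), Sp9509 of 4 (126 windows, 8 empty) and Lg7742a of 2 (475 windows, 47 empty). The variance over windows, divided by the mean, is 1 for counts scattered at random. It was 10.96 in Wa8730, 3.76 on the M and 1.70 on the T chromosomes of Lj8627, 1.89 in Sp9509 and 1.74 in Lg7742a. The mean itself was 56.9 in Wa8730, 13.3 on M and 2.74 on T chromosomes, 4.19 in Sp9509 and 2.84 in Lg7742a. At like relative unevenness this quotient rises with the mean. The fullest 10% of windows held 18.0% of the windowed loci in Wa8730, 23.9% in Sp9509 and 27.4% in Lg7742a. They held 21.8% on M and 27.1% on T chromosomes. Counting error raises that share where the mean is low, so neither measure is read as an order of clumping. The fullest window held 125 loci in Wa8730 (chr17:4000001-5000000), 45 in Lj8627 (chr1M:1-1000000), 14 in Sp9509 (chr13:3000001-4000000) and 11 in Lg7742a (chr15:1-1000000). Over the whole lists the fullest window of both Lemna accessions was thus the first of its chromosome, but in Lg7742a it was chr7:23000001-24000000 with 10 loci at 5 reads and chr5:24000001-25000000 with 5 loci at 10 reads. On the T chromosomes of Lj8627 it was chr7T:10000001-11000000 over the whole list and at both minimums. Empty windows numbered 406 in Lg7742a and 504 in Lj8627 at 10 reads, 125 in Lg7742a and 122 in Lj8627 at 5 reads, and 8 in Sp9509 and 0 in Wa8730 at both minimums. Window counts of members and of all other loci had a Spearman correlation of 0.84 in Wa8730, 0.52 on the M and 0.05 on the T chromosomes of Lj8627, 0.19 in Lg7742a and 0.12 in Sp9509, as a description over windows that share their libraries. In Wa8730 most other loci on numbered chromosomes were themselves 24 nt loci, unlike in the other lists.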

How the data were processed

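Lists of small RNA loci of 4 accessions were read, each made by the authors with ShortStack from all 3 replicates together, per the files' second column and names. The value per locus is the deposited read count, a whole number pooled over replicates with no normalization by the authors. Per the submitters' processing notes, fastp 0.20.1 and deepTools were among the tools. The sources used here do not give alignment settings, the treatment of reads with several matches or the thresholds of a locus. The size call is that of most reads, and other sizes occur in a 24 nt locus.

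Members were taken by the rule given at the start. The members, the rule and the lists of other loci were chosen with earlier results of these data known. Mature and star lines of hairpins were left out. Assembly lengths were not used here, so spans run to the last listed locus. Windows of 1 Mb that pass that locus were left out.

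Because replicates are pooled, no test between accessions was run. Shares have 95% Wilson intervals, medians intervals from binomial order statistics, and ratios of counts intervals from the binomial share. Depth was 5005362 to 7197515 reads in loci per list. Distances run from edge to edge on the same chromosome. Loci named are, per accession, the 2 members with most reads, the longest run, the fullest window, the densest and sparsest chromosome and, in Lj8627, the pairs with the highest and lowest ratio; any other was chosen after its values were seen. No sequence was matched or shown, since no genome was used here. Unused sample columns numbered 0.

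Other settings tried were minimums of 5 and 10 reads, scaling to the list with the fewest reads, other length limits, distances and spans, scaffolds and organelles added, and chromosome pairs left out. The difference at chromosome ends under other minimums, spans and comparison loci was added after seeing the data. Python 3.11.15, pandas 2.3.3, numpy 2.4.6, scipy 1.17.1 and matplotlib 3.10.9 were used. On simulated lists the rule recovered every member in 4 of 4.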

Additional observations from a re-analysis of the deposited data

Results flagged for a closer look

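Loci that met every part of the rule except the numbered chromosome were found on unplaced scaffolds, which no comparison above used. There were 232 in Lj8627 with a median of 6 reads, 86 in Wa8730 with a median of 12 and 21 in Lg7742a with a median of 7. These were 22.9% of the scaffold loci of Lj8627 (20.4 to 25.6), 44.1% of those of Wa8730 (37.3 to 51.1) and 20% of those of Lg7742a (13.5 to 28.6). On numbered chromosomes the shares were 23.5% in Lj8627, 55.0% in Wa8730 and 14.2% in Lg7742a. The scaffold intervals hold that share in Lj8627 and Lg7742a, and in Wa8730 the scaffold share was the lower.

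The lean toward chromosome ends ran in opposite directions in different accessions over the whole lists. In Lg7742a its sign in the outermost 10% at either end turned at 10 reads. The share of short two-strand 24 nt loci in the outermost 10% at either end, minus that of all other loci, was −4.75 percentage points in Sp9509, 6.06 in Lj8627 and 7.28 in Lg7742a. At 10 reads it was −4.37 points in Sp9509 (−7.54 to −0.808), 10.6 in Lj8627 (6.41 to 15.1) and −2.76 in Lg7742a (−9.39 to 6.33). In the outermost 20% at either end the difference in Sp9509 was −3.72 points, with an interval of −7.80 to 0.510 that holds 0. The difference between accessions was not tested, since each list is 1 pool. Set against other short two-strand loci alone, the values were −7.58 points in Sp9509, 3.51 in Lj8627 and 6.30 in Lg7742a.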

How the results depend on the processing

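Of 157 alternatives run on the number, density, length share, reads, spacing, position and M to T ratio, 96 stayed close to the reported value. Of the others, 59 moved and 2 turned direction, and no result rests on a test. Some had to stay close: no locus listed in Sp9509 had fewer than 5 reads, so that minimum repeated its reported values. Leaving out 1 chromosome pair keeps most loci, and every such setting counted as close. Close meant inside the interval of the reported value where it has one. Number and density have none, and 4021 loci against 5855 in Lj8627 still counted as close. A turn was a change of sign, which only the difference in share at chromosome ends can show. Changes in the order of the accessions were not counted as turns, although Sp9509 passed Lj8627 at 10 reads (558 against 480 loci). The 2 that turned were the members' share in the outermost 10% at either end minus that of other loci, at 10 reads, which was −2.76 points in Lg7742a and −4.25 on the T chromosomes of Lj8627; both intervals hold 0. At a minimum of 5 reads, Lg7742a had 818 loci, 1.69 per Mb, a short share of 91.5%, a median of 6 reads, a median distance of 140 kb and 24.6% within 10 kb. At 10 reads these were 94 loci, 0.194 per Mb, 58.0%, 11 reads, 411 kb and 34.0%, with 46.8% in the outermost 20% at either end. In Lj8627, 5 reads gave a short share of 91.5%, a median distance of 24.8 kb and 52.0% in the outermost 20% at either end. There, 10 reads gave 480 loci, 0.639 per Mb, 59.9%, 11 reads, 153 kb, 27.3% within 10 kb and 51.9%. In Wa8730, 10 reads gave a short share of 67.9%, 14 reads, 84.6% within 10 kb and 46.1%. With reads scaled to the list with the fewest, 10 reads left 94 loci in Lg7742a, 290 in Lj8627 and 12479 in Wa8730. A limit of 500 bp gave medians of 18 reads in Sp9509 and 12 in Wa8730. Within 5 kb the shares were 17.7% in Lg7742a, 25.6% in Lj8627 and 77.5% in Wa8730, and in Wa8730 the median distance from centre to centre was 1.74 kb. Taking the outermost 25% at either end gave 55.2% in Wa8730, 47.8% in Sp9509 and 58.4% in both Lj8627 and Lg7742a. The cause of these moves was not tested beyond the loci each setting takes in.

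The M to T ratio was 4.99 at 5 reads, 8.60 at 10 reads and 4.78 per Mb, and between 3.80 and 3.94 with each chromosome pair left out. Chosen after seeing the data were the M chromosomes alone (13.8 loci per Mb, median distance 16.9 kb), the T chromosomes alone (2.89 loci per Mb, 86.5 kb) and the ratio within 3 to 4 (2.47), 5 to 9 (4.70) and 10 to 14 reads (7.92). So was that difference in share at the ends under each setting. It was 1.22 points in Lg7742a at 10 reads against other short two-strand loci, and 1.33 in Wa8730 against such loci. In Lj8627 it was 7.78 at 5 reads, 10.6 at 10 reads, 9.64 at 10 reads in the outermost 20%, 3.51 against other short two-strand loci and 8.35 against them at 10 reads. On its M chromosomes it was 11.3 at 10 reads and 2.25 against other short two-strand loci.

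No paired analysis was possible because each list pools its 3 replicates, and leaving out a replicate was not run for the same reason. Depth and the smallest count listed differ between lists and cannot be told apart from the accession in counts over whole lists. A locus seen in 1 replicate cannot be told from one seen in 3.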
